A study of Mus musculus with 29 samples.

Results

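Clamped spinal cords of mice carrying a miR-155 knock-in were set against clamped spinal cords of mice lacking miR-128, with the libraries chosen by their labels alone. The comparison used 8 of the 29 libraries of the series. The 5 knock-in libraries (KI) are labelled as a motor neuron knock in of miR-155, and the 3 knockout libraries (KO) as a global knock out of miR-128. Both lines are described as being on a C57BL6 background, with no substrain given, and wild-type mice (WT) are labelled C57BL-6J. All of these mice underwent temporary occlusion of the aorta (aortic cross clamping, ACC), which leaves the lower cord without blood, and thoracic and lumbar cord was taken at 4 h. Sham KI (n = 4), Sham KO (n = 4), clamped WT (n = 3) and Sham WT (n = 3) cords are given beside them. Littermates had been split at random between ACC and Sham, both sexes were used, and ages are not given in the sources used here. Clamped KO library 1 was left out, as in the study, because its authors had seen no response to the clamp in that cord, and clamped KO library 2 had been lost to data corruption. The labels name neither the promoter or Cre driver of the knock-in nor its insertion site, nor which of the miR-128 genes was removed. Nothing beyond the separate mice of each group repeats the comparison, so the p-values measure the spread between these mice.

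MicroRNAs are short RNAs that guide Argonaute proteins to partly matching sites in mRNAs, mostly in the 3′ UTR, and lower the stability or translation of those mRNAs. Pairing is led by the seed, bases 2 to 8 of the mature strand. miR-128 is enriched in neurons and is made from a pair of genes that lie inside R3hdm1 on chromosome 1 and Arpp21 on chromosome 9. miR-155 is cut from the non-coding transcript Mir155hg on chromosome 16 and is known for promoting inflammatory responses of myeloid cells, microglia included. The mature strands are shown because the genotypes differ in them, with the seed in capitals and the sequences from RefSeq (GRCm38.p6). The miR-128 strand lies at chr1:128202404-128202424 on the plus strand and at chr9:112118644-112118664 on the minus strand, and the miR-155 strand at chr16:84714143-84714165 on the plus strand.
miR-128-3p: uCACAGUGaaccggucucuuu
miR-155-5p: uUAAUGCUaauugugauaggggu

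The libraries held 21969822 to 28145121 counts in clamped KI and 19792349 to 28603098 in clamped KO. Levels are given as CPM, the usual measure of counts relative to sequencing depth, and a gene was called when its adjusted p was under 0.05 in edgeR's quasi-likelihood test, fitted to 22 libraries in 6 groups over 19581 genes. The Sham WT libraries stood apart from each other and take part in the shared estimate of spread. At Gabra2 they held 50.2, 124 and 162 CPM, where clamped WT held 48.4, 53.6 and 56.6 CPM. At Ide they held 106, 57.5 and 54.1 CPM. Without them the comparison of clamped KI with clamped KO called 10 genes higher and 25 lower, against 10 and 28 with them. The 8 clamped libraries resembled each other closely, with correlations of log2 CPM between 0.9808 and 0.9919. The Y-linked gene Ddx3y was at 0 CPM in KI libraries 1, 2 and 3 and KO library 3 and between 97.6 and 109 CPM in the other clamped KI and KO libraries, so both groups held both sexes. All 6 WT libraries had Ddx3y at 0 CPM and Xist, the transcript of the inactive X, at 459 to 555 CPM, so each comparison with WT sets mixed sexes against females, and the part of sex in it was not tested.

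The transcripts of the altered loci were read first. Mir155hg (ENSMUSG00000097418, GRCm38 chromosome 16, 84703167 to 84715245, a lincRNA) is the host transcript of miR-155. It stood at 0.688, 1.40, 1.57, 1.47 and 1.32 CPM in clamped KI libraries 1 to 5 and at 0.154, 0.143 and 0.113 CPM in clamped KO libraries 3 to 5. Every KI library lay above every KO library, with library 1 the lowest of the KI cords. The difference was 3.20 log2 units (SE 0.56, edgeR adjusted p = 0.0078), a 9.22-fold higher level that rested on 160 counts in KI and 10 in KO. Clamped WT cords held 0.176, 0.219 and 0.11 CPM, close to KO. Sham KI cords held 0.37, 1.37, 0.86 and 0.492 CPM against 0.0385, 0.0361, 0.154 and 0.217 in Sham KO, again without overlap. The call was lost without any 1 of the 3 KO libraries, with adjusted p up to 0.0827, and DESeq2 gave no adjusted p for it.

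Neither host of miR-128 was called. R3hdm1 stood at 61.1, 71.1, 78.6, 70.9 and 75.2 CPM in KI and at 65.6, 66.6 and 68.5 in KO (0.09 log2 units, SE 0.0958, edgeR adjusted p = 0.761). Arpp21 stood at 31.5, 30.7, 28.4, 34.4 and 32.3 CPM in KI and at 42.2, 30.4 and 32.3 in KO (-0.15, SE 0.124, adjusted p = 0.697). The KI and KO ranges overlapped for both. Poly-A selected libraries do not measure mature microRNAs: the miRNA genes Mir155 and Mir128-2 held 0 counts in all 22 libraries and Mir128-1 held 19, so these host levels are no check of the knockout.

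Gt(ROSA)26Sor, the ubiquitously expressed non-coding transcript of a locus widely used for mouse transgenes, was examined because knock-ins are often placed there, although the labels name no site. Its levels were 7.84, 2.06, 5.67, 7.53 and 7.75 CPM in clamped KI and 15.8, 14 and 13.1 CPM in clamped KO. The groups did not overlap, yet the difference of -1.22 (SE 0.328) did not pass after adjustment (edgeR adjusted p = 0.205). Setd5, a chromatin gene with a SET domain, begins 31 bp from Gt(ROSA)26Sor on the other strand of chromosome 6 and was called higher in KI, at 111, 135, 127, 116 and 119 CPM against 98.2, 78.4 and 101 (0.40, SE 0.0821, adjusted p = 0.0374). In Sham cords the same difference was 0.06 (adjusted p = 0.932). Setd5 lost the call under 10 of the 17 alternatives, each KO library left out among them (adjusted p up to 0.251).

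Of the 19581 genes tested, 10 were called higher in clamped KI than in clamped KO (0.0511% of genes tested) and 28 were called lower (0.143%), 38 in all (0.194%). The 10 higher genes were Ide, Kif5a, Setd5, Aim2, Lrmda, Gm37530, Mir155hg, mt-Nd3, mt-Tg and mt-Tr. The 28 lower genes were led in size by Gm28438, Myoc, Gabra2, Pla2g2f, Gm7846, Trh and Crispld2. The absolute differences ran from 0.30 log2 units upward with a median of 0.87, and 23 of the 38 were below 1 log2 unit. All 38 had groups that did not overlap, as did 6.39% of all genes tested. The median over all tested genes was 0.00118 log2 units, and 2152 genes had an unadjusted p under 0.05 (11.0%).

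These counts rested on few mice. Without KO library 3 the test called 1 higher and 7 lower, without KO library 4 it called 3 and 12, and without KO library 5 it called 2 and 6. Leaving out KI library 2 gave 7 and 12, KI library 3 gave 5 and 12, KI library 4 gave 10 and 45, and KI library 5 gave 6 and 18. With the left-out KO library 1 put back, 16 were higher and 57 lower, and DESeq2 called 45 and 96. Cd59a, Gm28438, Ide, Mylk and Tspan14 passed under all 17 alternatives run. Col9a3, Lrmda, Tiparp and Ucp2 were lost under 1 each, and the other calls under 2 (Trh) to 14 (Adprhl2).

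A few of the called genes set clamped KI apart from both clamped KO and clamped WT. Ide (ENSMUSG00000056999, chromosome 19, 37268743 to 37337852), the insulin-degrading enzyme, stood at 111, 100, 109, 112 and 116 CPM in clamped KI and at 52.3, 53.5 and 55.8 CPM in clamped KO. Clamped WT cords held 56.6, 53.9 and 56.9 CPM. KI was thus 2.04-fold higher than KO (1.03 log2 units, SE 0.143, edgeR adjusted p = 0.00206), with the WT cords at the KO level. Of its neighbours on chromosome 19, Btaf1, a regulator of the TATA-binding protein, stood at 58.5 to 66.3 CPM in KI and 29.4 to 44.9 in KO (0.76, SE 0.178, adjusted p = 0.114). Fgfbp3, a binding protein of fibroblast growth factors, had a difference of 0.66 (SE 0.207, adjusted p = 0.266). Both ranges lay apart without passing. Copy number of the segment that holds Ide and Fgfbp3 is known to vary within C57BL/6J mice; which copy number these mice carried was not tested.

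Myoc (ENSMUSG00000026697, chromosome 1, 162639155 to 162649693) encodes myocilin, a secreted glycoprotein known from glaucoma. It was at 18.3, 8.82, 12.7, 21.8 and 14 CPM in clamped KI, at 68.4, 44.7 and 74.1 in clamped KO, and at 89.5, 56.5 and 135 in clamped WT. Every KI cord was below every KO and WT cord, and KO was 4.13-fold higher than KI (-2.05, SE 0.316, edgeR adjusted p = 0.00927). The Sham cords repeated it, with 32.3, 14, 22.4 and 19.3 CPM in KI and 56.1, 62.9, 84.3 and 77.8 in KO. Myoc lost the call in a fit to the 8 clamped libraries alone, with replicate number as a block in the fit, and without KO library 3 or 5. Its adjusted p ran up to 0.0966 over the alternatives.

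Tspan14 (ENSMUSG00000037824, chromosome 14, 40906445 to 40966807), a tetraspanin that partners the protease ADAM10, held 28.1, 22.5, 23.9, 28.1 and 32.4 CPM in clamped KI and 43.3, 42.9 and 43.8 in clamped KO. Clamped WT held 43.6, 36.8 and 47.6 CPM, so KI again stood alone. The difference was -0.68 (SE 0.0933, edgeR adjusted p = 0.000452), and its adjusted p stayed at or below 0.00838 under the alternatives. Against clamped WT, KI differed by -2.64 for Myoc (adjusted p = 0.00286), by -0.66 for Tspan14 (adjusted p = 0.00286) and by 0.98 for Ide (adjusted p = 0.00781). These 3 were the members of the 38 called between KI and WT, where 4 genes were called over all tested. Mir155hg differed from WT by 2.91 (adjusted p = 0.0871).

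**Figure D1:**
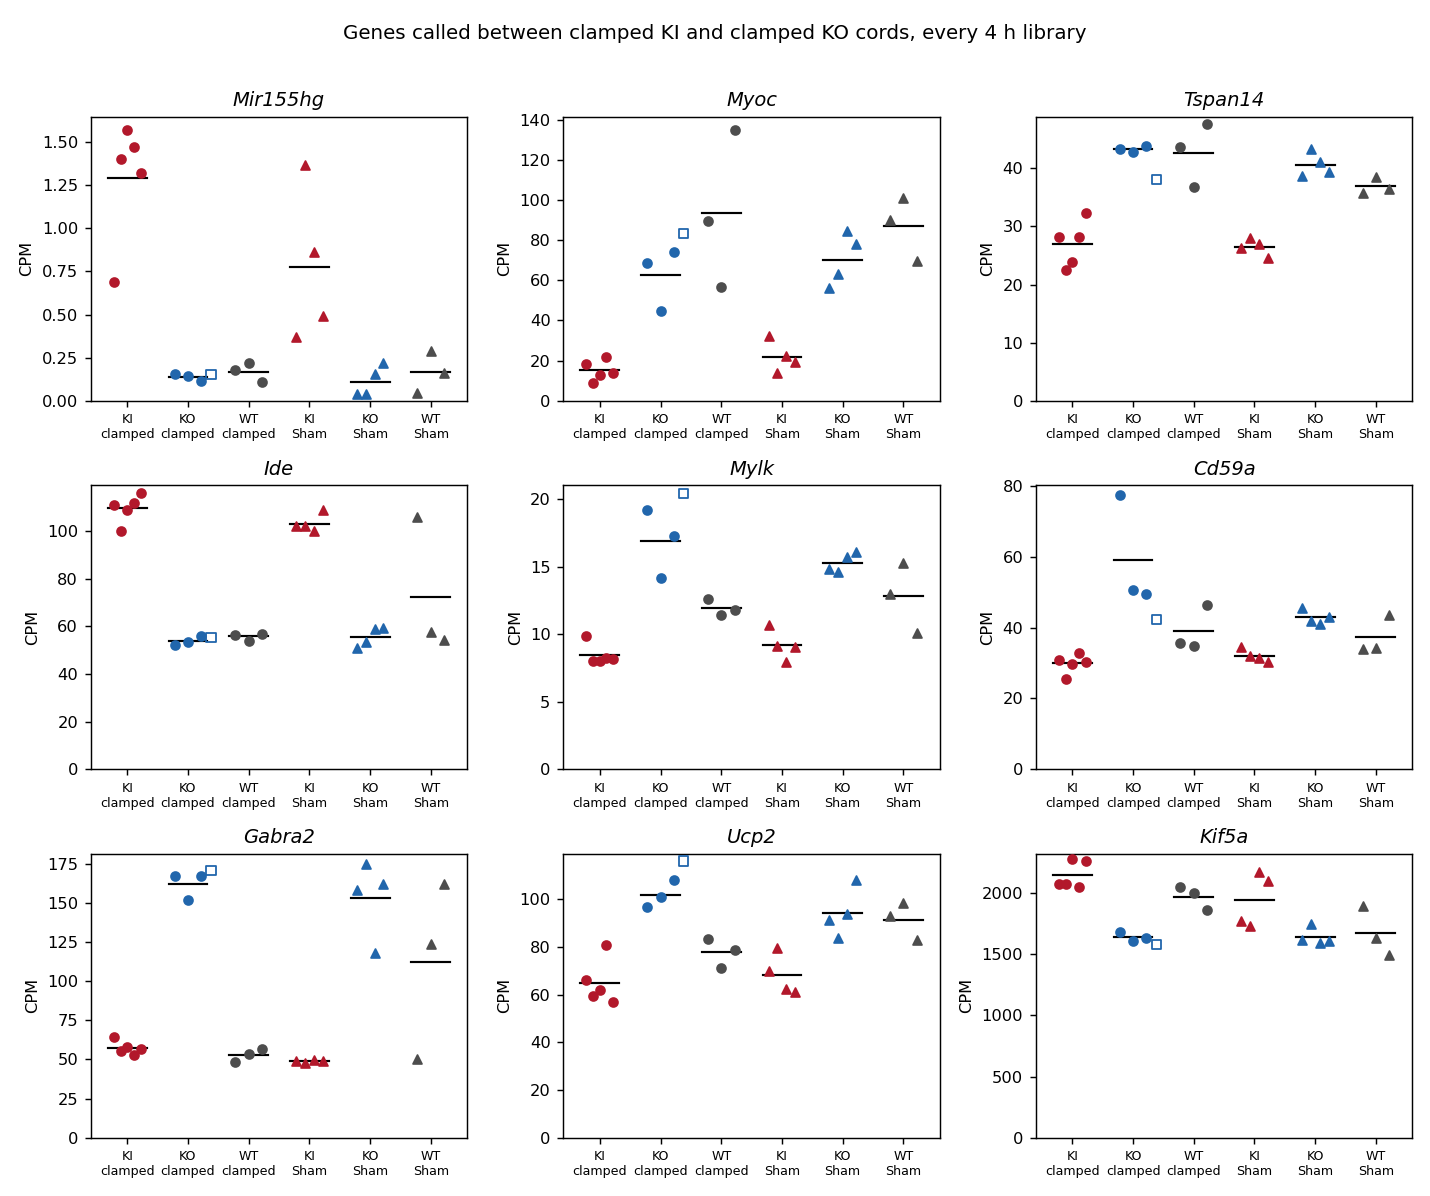
Levels of 9 genes called between clamped KI and clamped KO cords, in CPM (linear axes from 0) in each 4 h library. Circles are clamped cords, triangles Sham cords, lines group means, and the open square is clamped KO library 1, which was left out. Ide, Myoc and Tspan14 show clamped KI apart from clamped KO and clamped WT, with Sham WT library 1 at 106 CPM of Ide, while Gabra2 shows KO apart from KI and clamped WT, with the 3 Sham WT libraries spread from 50.2 to 162 CPM.

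Distances from clamped WT were read for all 38. By fitted distance from clamped WT, KO lay further away than KI for 27 of the 38 genes, 20 of them lower in KI and 7 higher, and KI lay further away for 11. Both distances use the same 3 WT libraries, and KO rests on 3 libraries against 5 for KI. They are therefore given side by side as a description, without the share over all genes tested. Only Gm28438 was called between KO and WT (4.12, adjusted p = 0.025), and it was the 1 gene so called among all tested. Next to it by adjusted p among the 38 came Lrmda and mt-Nd3, with -2.18 and -4.36 (adjusted p = 0.0538 for each), and Gabra2, with 1.62 (adjusted p = 0.0588).

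**Figure D2:**
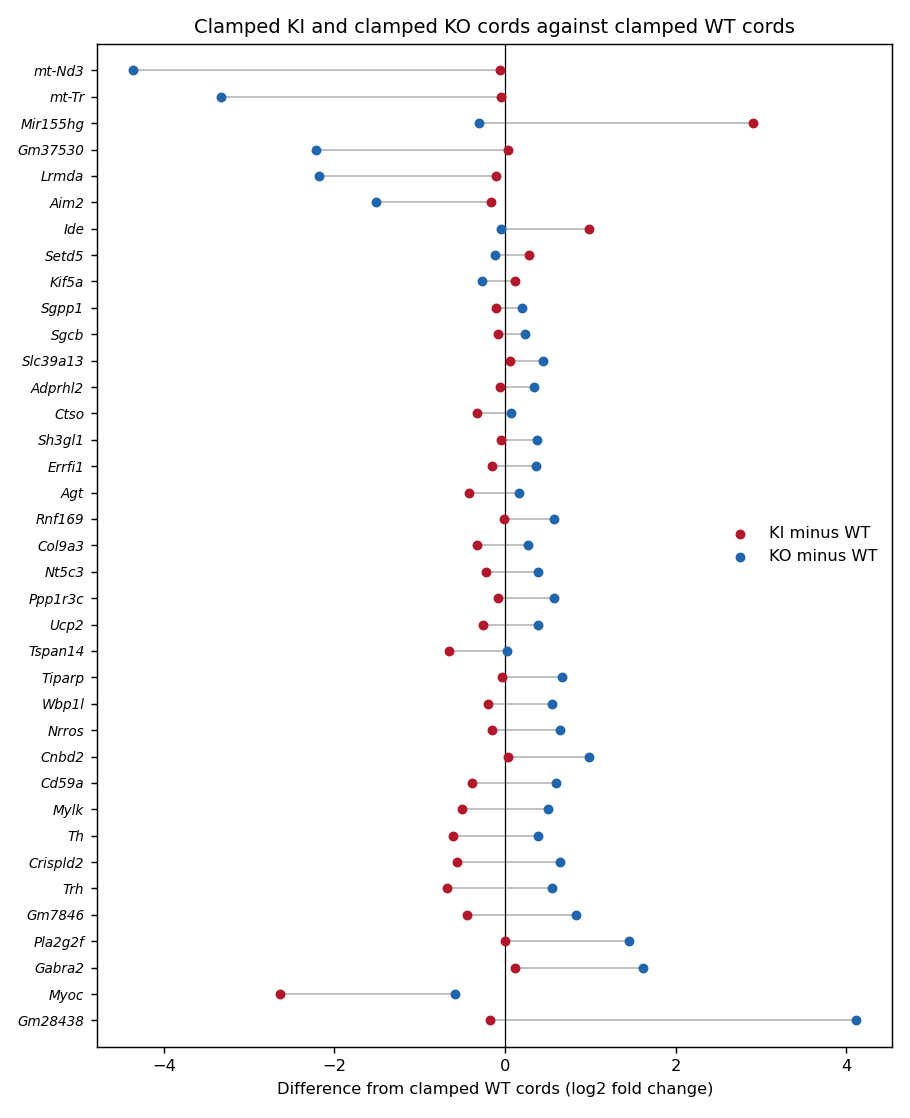
Difference of clamped KI (red) and of clamped KO (blue) from clamped WT, in log2 fold change, for 37 of the 38 called genes, ordered by the difference between KI and KO. The gene mt-Tg is left out because it had no count in KO. Red points lie furthest from 0 for Mir155hg, Myoc and Ide, followed by Trh (-0.68), Tspan14 (-0.66) and Th (-0.61). Blue points lie furthest from 0 for mt-Nd3, Gm28438, mt-Tr, Gm37530, Lrmda, Gabra2, Aim2 and Pla2g2f.

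Gabra2 (ENSMUSG00000000560, chromosome 5, 70957597 to 71095849) encodes the alpha2 subunit of the GABA-A receptor, the chloride channel of fast inhibition. Clamped KI cords held 64.1, 55.7, 58.2, 53.1 and 56.9 CPM and clamped KO cords 167, 152 and 167. The groups lay far apart, and KO was 2.82-fold higher (-1.49, SE 0.225, edgeR adjusted p = 0.0078). The left-out KO library held 171 CPM. Sham KI cords held 48.9, 47.7, 49.7 and 49.2 CPM and Sham KO cords 158, 175, 118 and 162. The call was lost without KO library 3 or 5 and with replicate number as a block in the fit. Its adjusted p ran up to 0.079 over the alternatives. An intronic deletion that lowers Gabra2 is known in C57BL/6J mice and not in C57BL/6N. Whether the lines differ in that allele was not tested.

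No other inhibitory gene was called. Of 33 tested genes of GABA and glycine signalling, 1 was lower (Gabra2), 0 were higher and 32 were not called, and the list's median was 0.06 log2 units. The transmitter-making enzyme Gad1 stood at 173 to 199 CPM in KI and 192 to 234 in KO (-0.16, SE 0.0771, edgeR adjusted p = 0.453), and Gad2 at 95.7 to 126 against 91.0 to 116 CPM (0.13, SE 0.144, adjusted p = 0.795). The vesicular transporter Slc32a1 differed by 0.10 (adjusted p = 0.691) and the glycine transporter Slc6a5 by 0.21 (adjusted p = 0.647). The ranges overlapped for all 4. Of 34 tested genes of glutamate signalling and 25 of voltage-gated potassium channels, 0 were called in either direction.

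Genes known to vary among C57BL/6 substrains were listed for this reason. Of 9 tested, 1 was higher (Ide), 1 was lower (Gabra2), 7 had an unadjusted p under 0.05 (11.0% of all genes tested) and 5 had groups that did not overlap (6.39% of all genes tested). The list was drawn up with these differences already known. Wdfy1, an endosomal adaptor of Toll-like receptor signalling, stood at 17.1, 19.6, 16.7, 17.0 and 18 CPM in clamped KI and 41.6, 40.3 and 64.6 in clamped KO. Those ranges were apart, and the difference of -1.47 (SE 0.337) did not pass (edgeR adjusted p = 0.124). Nnt, the mitochondrial transhydrogenase that C57BL/6J mice lack in functional form, was under 0.9 CPM in each of the 8 libraries (0.03, SE 0.51, adjusted p = 0.988).

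Among the called genes, the largest fitted differences came from mt-Tg, mt-Nd3 and Gm28438. mt-Nd3 (chromosome MT, 9459 to 9806), a subunit of respiratory complex I, stood at 58.3, 61.6, 65.5, 72.3 and 63.4 CPM in clamped KI and at 2.62, 3.84 and 3.19 in clamped KO (4.30, SE 0.652, edgeR adjusted p = 0.00818). Gm28438 (chromosome 1, 24612775 to 24613119), a nuclear pseudogene, ran the other way, at 3.12, 3.55, 3.03, 3.37 and 3.92 CPM in KI and 68.1, 71.8 and 59.3 in KO (-4.29, SE 0.446, adjusted p = 0.000275). The groups did not overlap at either gene.

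The opposite directions belong to a nearly identical pair of sequences. Aligned over the 348 bases of mt-Nd3 and the 345 of Gm28438, 344 bases were identical, 1 differed and 3 fell in gaps, so the counting could place a read of one at the other, and both counts are uncertain. Summed over the pair, the libraries held 61.4 to 75.6 CPM in clamped KI and 62.5 to 75.7 in clamped KO, which overlap. The share of the sum placed at mt-Nd3 was 94.2% to 95.6% in clamped KI and 3.7% to 5.1% in clamped KO. Sham KI and Sham KO cords were split in the same way, with 94.5% to 96.1% and 4.3% to 5.5%. In Sham WT the share was 93.1%, 47.6% and 4.8% in libraries 1 to 3.

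**Figure D3:**
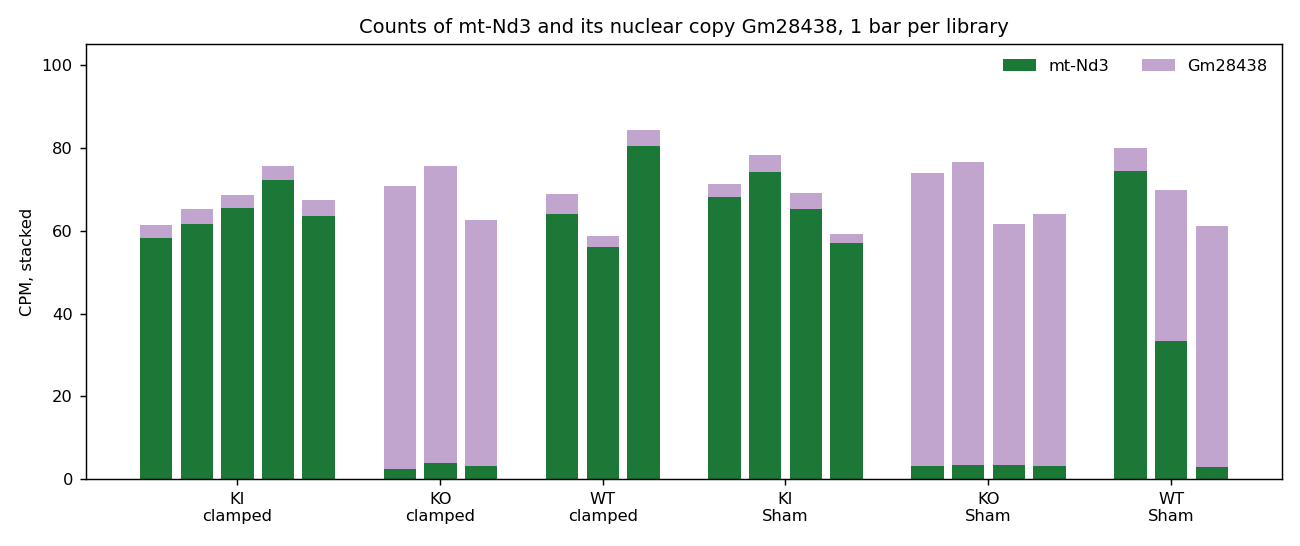
CPM at mt-Nd3 (green) and its nuclear copy Gm28438 (violet), stacked, with 1 bar per library in the 6 groups. The stack height stays between 58.7 and 84.3 CPM, while the green share is high in KI and clamped WT, low in KO, and different in each of the 3 Sham WT libraries.

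The tRNA genes on either side of mt-Nd3 moved with it. mt-Tg, the glycine tRNA at 9391 to 9458, stood at 2.20, 1.40, 2.46, 2.81 and 1.67 CPM in clamped KI and had no count in the 3 clamped KO libraries. With 3 counts over the KO group as a floor (0.0406 CPM), KI was at least 52.0-fold higher (edgeR adjusted p = 0.0078). mt-Tr, the arginine tRNA at 9808 to 9875, stood at 0.674 to 1.32 CPM in KI and 0.0514 to 0.143 in KO (3.28, SE 0.628, adjusted p = 0.0217). Sham WT libraries 1 to 3 held 1.59, 1.16 and 0 CPM of mt-Tg and 0.795, 0.964 and 0.0405 of mt-Tr. Whether reads of these tRNA genes were placed elsewhere in the genome was not tested, so their counts are uncertain too. The other 29 of 32 tested mitochondrial genes were not called, mt-Co1 among them at 18400 to 21000 CPM in KI and 18600 to 21200 in KO. Not all of them were level: mt-Co3 had the lowest difference of the 13 listed mitochondrially encoded genes, at -1.18. Without any 1 of the 3 KO libraries mt-Nd3, mt-Tg and mt-Tr each lost the call, while Gm28438 kept it. With replicate number as a block in the fit, mt-Nd3, mt-Tg and mt-Tr lost it too, and mt-Tr also without KI library 3.

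Mylk (ENSMUSG00000022836, chromosome 16, 34745210 to 35002420), the myosin light chain kinase that drives smooth muscle contraction, stood at 9.90, 8, 8.03, 8.24 and 8.19 CPM in clamped KI and 19.2, 14.2 and 17.3 in clamped KO. Clamped WT lay between them at 12.6, 11.4 and 11.8 CPM. The difference was -0.99 (SE 0.121, edgeR adjusted p = 0.000222). The other 8 of 9 tested markers of pericytes and smooth muscle were not called, and the summed level of that list was 68.9 to 129 CPM in KI and 91.9 to 109 in KO, which overlap.

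Cd59a, an inhibitor of the complement membrane attack complex, stood at 31.0, 25.6, 29.8, 32.8 and 30.3 CPM in clamped KI and 77.6, 50.6 and 49.4 in clamped KO. KO library 3 was far above the other KO libraries, and the groups were still apart. The difference was -0.98 (SE 0.121, edgeR adjusted p = 0.000222). In Sham cords the ranges were also apart, at 30.4 to 34.5 and 41.0 to 45.7 CPM, with a difference of -0.42 that did not pass (adjusted p = 0.249).

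Ucp2, a carrier of the inner mitochondrial membrane, held 66.0, 59.4, 62.1, 80.9 and 56.9 CPM in KI and 96.6, 101 and 108 in KO (-0.65, SE 0.102, edgeR adjusted p = 0.00408). Ppp1r3c, which brings protein phosphatase 1 to glycogen, held 61.7, 61.7, 62.2, 91.3 and 75.5 CPM in KI and 120, 109 and 104 in KO (-0.65, SE 0.125, adjusted p = 0.0301). KI library 4 was the highest KI cord at both genes and still below KO. Agt, the angiotensin precursor made by astrocytes in the cord, was lower by a difference of -0.58 (SE 0.119, adjusted p = 0.0412), at 214 to 287 CPM against 328 to 404. Its ranges did not overlap either.

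Signalling genes were also among the lower calls. Tiparp, an ADP-ribosyltransferase induced by the aryl hydrocarbon receptor, stood at 27.5 to 38.8 CPM in KI and 44.7 to 60.6 in KO (-0.70, SE 0.117, edgeR adjusted p = 0.00767). Errfi1, a feedback inhibitor of the epidermal growth factor receptor, stood at 162 to 189 CPM in KI and 239 to 264 in KO (-0.51, SE 0.102, adjusted p = 0.0304), and was the 1 called gene of 23 tested glucocorticoid and clock genes. Nrros, a myeloid protein that binds latent TGF-beta, stood at 5.52 to 11.1 CPM against 11.6 to 18.1 (-0.80, SE 0.162, adjusted p = 0.0343). None of these ranges overlapped, though for Nrros the highest KI and the lowest KO cord were close. Smaller differences were those of Sh3gl1 (endophilin A2, -0.44), Sgpp1 (sphingosine 1-phosphate phosphatase, -0.30), and Adprhl2 (an ADP-ribose hydrolase, -0.40), and Rnf169, a ubiquitin ligase of DNA damage sites, differed by -0.59. Their adjusted p ran from 0.0343 to 0.0437. Of the 17 alternatives, Errfi1 lost the call under 8, Sh3gl1 under 9, Nrros under 10, Rnf169 under 11, Sgpp1 under 13 and Adprhl2 under 14.

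Secreted and structural products made up a further group. Col9a3, a chain of type IX collagen, stood at 19.9, 21.1, 22.2, 19.8 and 19.9 CPM in KI and 27.6, 32.3 and 33.6 in KO (-0.60, SE 0.0973, edgeR adjusted p = 0.00483). Crispld2, a secreted glycoprotein, differed by -1.21 (SE 0.238, adjusted p = 0.0402), with KI library 1 at 13.6 CPM just under KO library 4 at 14.1. Pla2g2f, a secreted phospholipase, stood at 0.371 to 0.821 CPM against 1.47 to 2.21 (-1.45, SE 0.304, adjusted p = 0.0392). The remaining lower calls were Nt5c3 (a pyrimidine nucleotidase, -0.61), Sgcb (beta-sarcoglycan, -0.31), Ctso (cathepsin O, -0.40), Slc39a13 (the zinc transporter ZIP13, -0.39), Wbp1l (-0.75), Cnbd2 (-0.95) and the pseudogene Gm7846 (-1.27).

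Genes of transmitter and peptide synthesis gave a pair of lower calls. Trh, the precursor of thyrotropin-releasing hormone, stood at 1.33, 2.43, 1.89, 3.21 and 2.11 CPM in clamped KI and 4.27, 5.95 and 5.29 in clamped KO (-1.23, SE 0.215, edgeR adjusted p = 0.0078). Th, tyrosine hydroxylase of catecholamine synthesis, stood at 4.13, 4.62, 2.39, 3.92 and 4.14 CPM against 6.33, 8.03 and 8.48 (-0.99, SE 0.213, adjusted p = 0.0441). KI and KO cords did not overlap at either gene. Th lost the call under 13 of the 17 alternatives, and the left-out KO library held 5.05 CPM.

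A separate list of spinal neuropeptides gave no call, yet its members lay on the same side. All 20 tested members had negative differences, where 49.7% of all tested genes did. An unadjusted p under 0.05 was held by 15 of them, and by 11.0% of all genes tested. The list summed to 443 to 555 CPM in clamped KI, 608 to 677 in clamped KO and 475 to 587 in clamped WT. The WT range thus overlapped that of KI and lay below that of KO. The median was -0.39 log2 units in clamped cords and -0.17 in Sham cords. Grp, gastrin-releasing peptide, stood at 6.25 to 9.71 CPM in KI and 10.9 to 14.3 in KO (-0.61, SE 0.136, edgeR adjusted p = 0.0556). Calca, the precursor of calcitonin gene-related peptide, stood at 33.4 to 46.0 CPM against 56.6 to 62.5 (-0.55, SE 0.122, adjusted p = 0.0675). Penk and Sst, the precursors of enkephalin and somatostatin, differed by -0.31 (adjusted p = 0.279) and -0.34 (adjusted p = 0.155). Against clamped WT, Penk differed by 0.07 in KI and 0.38 in KO, and Sst by -0.13 and 0.21. In bulk cord, a difference in the number of cells of a type and one in RNA per cell cannot be told apart.

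Neuronal, immune and unnamed genes were among the higher calls. Kif5a (ENSMUSG00000074657, chromosome 10, 127225696 to 127263348), a neuronal kinesin that carries cargo along axons, stood at 2070, 2070, 2280, 2050 and 2260 CPM in clamped KI and 1680, 1610 and 1630 in clamped KO (0.39, SE 0.0798, edgeR adjusted p = 0.0343). Clamped WT held 2050, 2000 and 1860 CPM, nearer to KI. Aim2, a sensor of cytosolic DNA that builds an inflammasome, stood at 5.09, 5.07, 6.85, 5.31 and 5.11 CPM in KI and 1.49, 1.94 and 2.93 in KO (1.36, SE 0.288, adjusted p = 0.0437). Clamped WT held 5.80, 6.52 and 6.04 CPM of Aim2, at the KI level. Sham WT libraries 1 to 3 held 5.80, 3.66 and 1.38 CPM, a spread from the KI level to the KO level. Lrmda, a leucine-rich repeat gene named for melanocyte differentiation, stood at 1.32 to 1.62 CPM in KI and 0.103 to 0.488 in KO (2.08, SE 0.354, adjusted p = 0.00767). The unnamed transcript Gm37530 stood at 1.11 to 3.07 CPM in KI and 0.251 to 0.771 in KO (2.25, SE 0.476, adjusted p = 0.0437).

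Of the 38 called genes, 12 overlapped another tested gene, and whether the counting used strand is not given in the sources used here. Aim2 shares its span with Cadm3 on the opposite strand, which held 294 CPM on average in KI and 265 in KO and was not called (0.15, adjusted p = 0.466). Slc39a13 overlaps Psmc3 (-0.03, adjusted p = 0.93), Sh3gl1 overlaps Mpnd (-0.26, adjusted p = 0.321) and Cnbd2 overlaps Scand1 (-0.09, adjusted p = 0.826). The counts of Aim2, Slc39a13, Sh3gl1 and Cnbd2 are uncertain for that reason.

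The Sham cords show whether the same differences were present without the clamp. They come from other mice, although both comparisons share the estimate of spread. Sham KI against Sham KO called 11 genes higher and 18 lower, 29 in all (0.148% of genes tested). Of these, 17 were among the 38 called in clamped cords with the same direction, 6 higher and 11 lower, which is 44.7% of the clamped calls and 58.6% of the Sham calls. The 6 were Ide, Aim2, Mir155hg, mt-Nd3, mt-Tg and mt-Tr, and the 11 were Gabra2, Wbp1l, Myoc, Sh3gl1, Tiparp, Tspan14, Rnf169, Slc39a13, Gm28438, Col9a3 and Mylk. Leaving out any 1 of the 4 Sham KO libraries, or Sham KI library 2 or 3, left 6 genes higher. The lower calls came to 8 without Sham KI library 4, 9 without Sham KI library 3 and 10 without Sham KO library 3 or 4.

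The remaining clamped calls mostly pointed the same way in Sham. The Sham difference had the same sign for 37 of the 38, with Gm7846 as the exception (0.05). For 29 of the 38 the Sham groups did not overlap and lay in the same direction, where 3.99% of all tested genes had Sham groups that did not overlap. Clamped KO library 1, which took no part in the test, lay on the KO side of the KI range for 36 of the 38. Rnf169 and Cnbd2 were the exceptions, at 30.4 and 3.51 CPM. That library resembled Sham cords in its stress response, with the heat shock gene Hspa1b at 2.78 CPM where Sham KO cords held 2.56 to 4.39. The counts of 37 and 36 have no share over all genes tested beside them, so they are given only as a description.

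**Figure D4:**
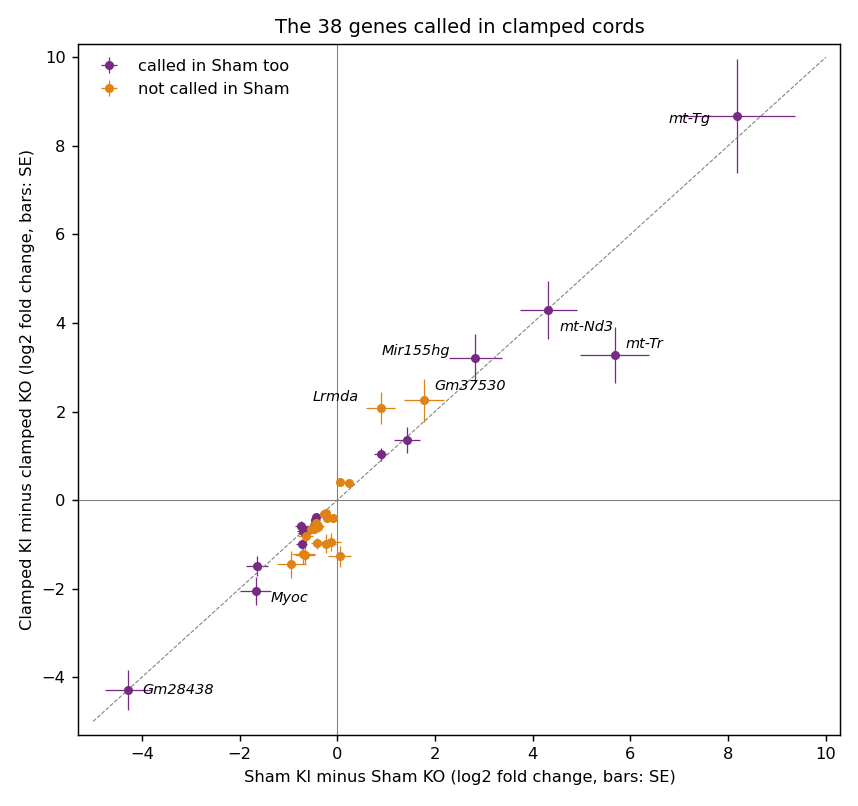
Log2 fold change between KI and KO in Sham cords (horizontal) and in clamped cords (vertical) for the 38 genes called in clamped cords, with bars of 1 SE. Purple points were called in Sham too and orange points were not. The dashed line marks equal differences, and the points run from Gm28438 at -4.29 to mt-Tg at 8.67 (a fitted value with no count in KO). Gm7846 (0.05 in Sham), Cnbd2 (-0.13), Th (-0.23), Lrmda (0.89) and mt-Tr (5.68) lie well off the line.

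The difference of the clamp effect between KI and KO was tested directly as (KI ACC minus KI Sham) minus (KO ACC minus KO Sham). No gene was called by edgeR (0 of 19581), the smallest adjusted p was 0.925, and 850 genes had an unadjusted p under 0.05. DESeq2 called 1 gene. Polr3d, a subunit of RNA polymerase III, had the smallest p (-0.58, SE 0.13, adjusted p = 0.925). Slc5a7, which takes choline up into cholinergic neurons, had a value of 0.48 (SE 0.125, adjusted p = 0.925). Gm7846, the called gene without a Sham difference, had a value of -1.32 (SE 0.339, adjusted p = 0.925). A gene called in clamped cords and not in Sham is therefore not shown to respond differently to the clamp.

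Chemokines, stress genes and motor neuron genes showed no called difference between the clamped genotypes. Ccl3 stood at 16.3, 28.7, 10.2, 8.88 and 29.7 CPM in clamped KI and 4.22, 17.6 and 21.6 in clamped KO (0.36, SE 0.44, edgeR adjusted p = 0.818). Ccl4 (0.26, SE 0.519, adjusted p = 0.899) and Ccl2 (0.17, SE 0.58, adjusted p = 0.942) spread as widely within each group. Of 15 tested gene entries of CC ligands and 9 ligands of the other classes, 0 were called. The CC entries include a second, low-count entry under the name Ccl27a. Markers of myeloid cells were likewise uncalled, with 0 of 13 microglial genes, 0 of 10 neutrophil genes and 0 of 9 monocyte and macrophage genes. Of the 13 microglial genes, 5 had an unadjusted p under 0.05 (11.0% of all genes tested), and 7 had negative differences. Cx3cr1, a chemokine receptor, stood at 20.9 to 34.6 CPM in KI and 11.5 to 19.7 in KO (0.79, SE 0.246, edgeR adjusted p = 0.283). Its ranges lay apart, as in Sham (0.57, adjusted p = 0.56), while C1qa was the lowest of the list at -0.42.

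Of 22 heat shock genes, 0 were called, and Hspa1b, an inducible heat shock protein 70, stood at 488, 763, 477, 416 and 697 CPM in KI and 594, 501 and 526 in KO (0.07, SE 0.202, edgeR adjusted p = 0.929). Of 33 immediate early genes, 0 were called, 28 had negative differences and the median was -0.20. Fos stood at 110 to 189 CPM in KI and 139 to 200 in KO (-0.20, SE 0.259, adjusted p = 0.829), ranges that overlap. With KO library 1 put back, the value for Fos was 0.19. Among 13 motor neuron markers, 0 were called. Chat, which makes acetylcholine, stood at 18.8 to 26.6 CPM against 21.5 to 27.5 (-0.20, SE 0.18, adjusted p = 0.721), and Mnx1 differed by -0.09 (adjusted p = 0.918). The median of the list was 0.07 log2 units in clamped cords and -0.29 in Sham cords, where 11 of the 13 differences were negative. Tns1, a member of the list, was called in Sham (-0.34, edgeR adjusted p = 0.0459), and Chat was not (-0.59, adjusted p = 0.307).

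**Figure D5:**
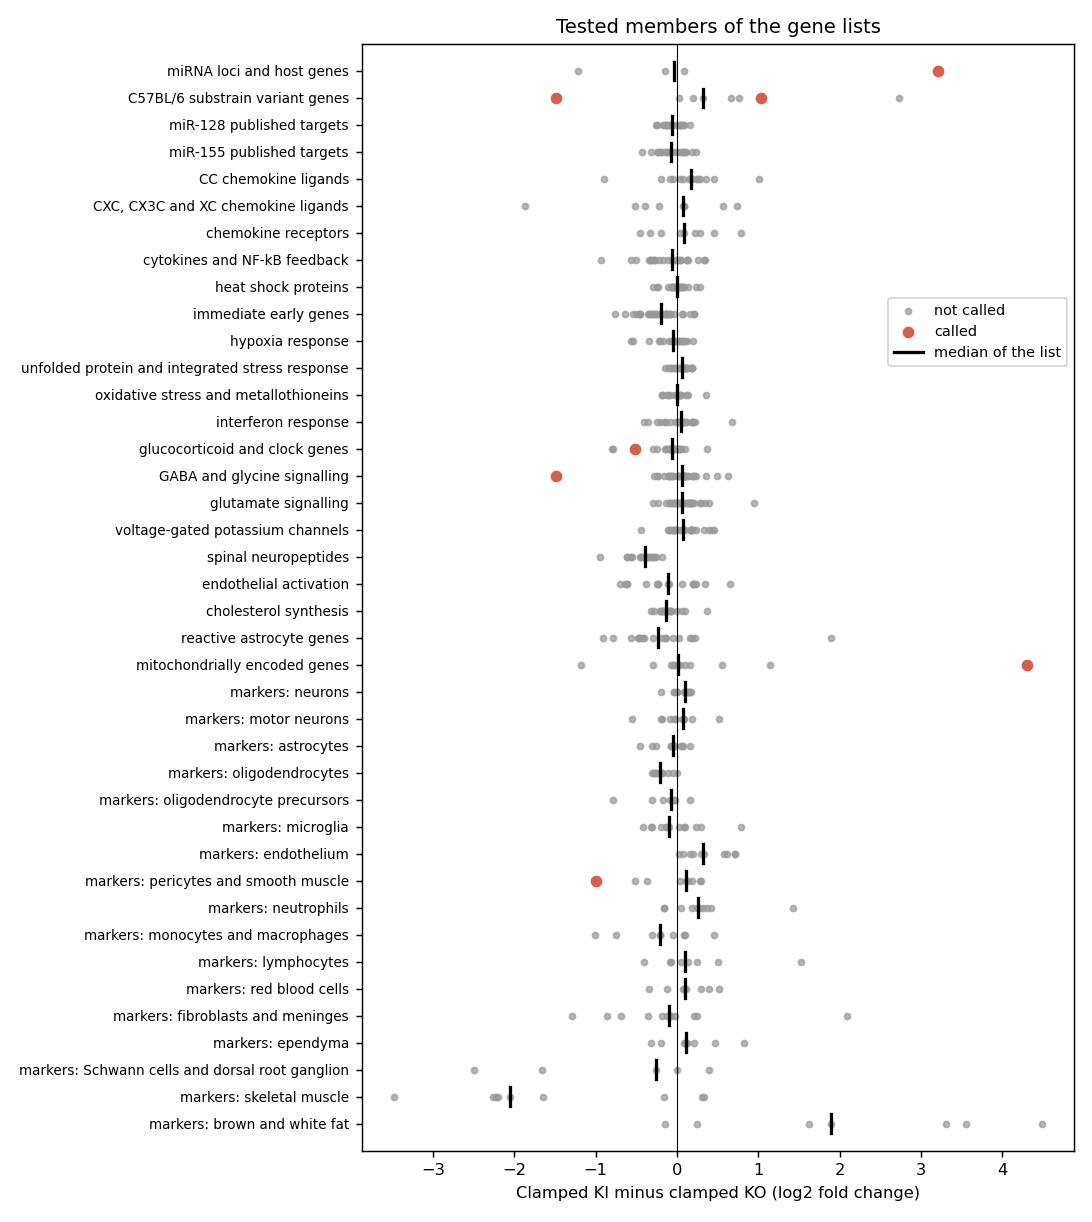
Log2 fold change between clamped KI and clamped KO for the tested members of 40 gene lists, 1 point per gene and 1 row per list. Red points were called, grey points were not, and black lines are list medians. The medians of most lists lie near 0, spinal neuropeptides lie below it, and the lists of skeletal muscle (-2.05) and fat (1.89) lie furthest out with no called member.

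Over all 43 lists, 630 genes were tested and 6 were called (Ide, Gabra2, Mir155hg, mt-Nd3, Errfi1 and Mylk), where 0.194% of all genes tested were called, and 37 lists had no call. Markers of other tissues differed between single libraries. Skeletal muscle genes summed to 130 CPM in KO library 5 and to 27.0 or less in the other 7 clamped libraries. Fat genes summed to 74 and 69.6 CPM in KI libraries 4 and 5 and to between 7.60 and 20.8 in the rest. Muscle and fat adjoin the cord, and the part of these levels in the called genes was not tested. Hox genes of the thoracolumbar cord summed to 647 to 699 CPM in KI and 620 to 713 in KO, with 0 of 15 called.

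Markers of the cord's own cells were closer. Neuronal markers summed to 8410 to 10400 CPM in KI and 8180 to 9920 in KO, and 0 of 12 were called. Oligodendrocyte markers summed to 33300 to 41900 CPM in KI and 43000 to 45100 in KO, ranges that did not overlap, with 10 of 11 differences negative, 0 called and a median of -0.21. Clamped WT cords spanned 31300 to 42600 CPM. All 10 tested endothelial markers had positive differences, with 0 called and a median of 0.32 log2 units (0.29 in Sham). Their sums overlapped, at 94.6 to 206 CPM in KI and 99.1 to 134 in KO. Markers of fibroblasts and meninges summed to 705 to 793 CPM in KI and 586 to 680 in KO, with 0 of 12 called. That sum was carried by Ptgds, a prostaglandin synthase, at 584 to 628 against 426 to 552 CPM, while 9 of the 12 differences were negative with a median of -0.10. The part of these shifts in the 38 calls was not tested.

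Published targets of both microRNAs were listed because the genotypes change those microRNAs. Of 19 tested targets of miR-128, 0 were called, 12 had negative differences and the median was -0.06 log2 units. Pea15a, a phosphoprotein that restrains apoptosis, stood at 730 to 931 CPM in KI and 965 to 1000 in KO (-0.26, SE 0.0879, edgeR adjusted p = 0.295). Of 22 tested targets of miR-155, 0 were called, 14 had negative differences and the median was -0.07. Cebpb, a transcription factor of inflammation, stood at 19.1 to 27.6 CPM against 30.9 to 35.1 (-0.43, SE 0.126, adjusted p = 0.225), and Bach1, a repressor of heme oxygenase, at 30.1 to 33.7 against 37.2 to 40.4 (-0.25, SE 0.0829, adjusted p = 0.293). All 3 had groups that lay apart without passing.

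Seed matches were then searched in the longest annotated 3′ UTR of 15578 tested genes (GENCODE transcripts on GRCm38, transcript strand only). A 7mer match was CACTGTG for miR-128-3p and AGCATTA for miR-155-5p, or their last 6 bases followed by A, and an 8mer was the 7 bases followed by A. Genes with an 8mer for miR-128 (915) had a median difference of 0.0023 log2 units, those with a 7mer (3770) 0.0064, and those without a match (10893) -0.0144. For miR-155 the medians were 0.0084 (518 genes), 0.0115 (1619) and -0.0120 (13441). In Sham cords the signs were opposite, with -0.0340, -0.0135 and 0.0102 for miR-128 and -0.0259, -0.0179 and 0.0048 for miR-155. All of these medians are under 0.05 log2 units in size. Genes with matches have longer UTRs, with medians of 2392, 2122 and 814 bases for the miR-128 classes, so the classes differ in more than the match. Among UTRs of 1000 to 2000 bases the miR-128 medians were -0.0290 (8mer), -0.0138 (7mer) and -0.0032 (none) in clamped cords and 0.0007, -0.0100 and -0.0002 in Sham, so the order over all genes did not hold at matched length.

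Of the 26 genes called lower with an annotated 3′ UTR, 5 held a miR-128 match, 3 of them an 8mer, where 30.1% of all 15578 genes held a match and 5.9% an 8mer. For miR-155 the numbers were also 5, 2 of them an 8mer, where 13.7% of all genes held a match and 3.3% an 8mer. Of 5 higher genes with an annotated UTR, 1 (Setd5) held a miR-128 match and 0 a miR-155 match. The windows of the 8mers in called genes and of the 7mer in Gabra2 are shown, with the matched bases in capitals (GRCm38, mRNA strand). Other 7mers in called genes are not shown: those of Errfi1 and Setd5 for miR-128 and of Ctso and Col9a3 for miR-155. Sgcb also holds 7mers for both microRNAs, and Wbp1l a further 7mer for miR-128. Tspan14 and Wbp1l hold 8mers for miR-155, and Wbp1l, Sgcb and Slc39a13 hold 8mers for miR-128.
Tspan14, miR-155, chr14:40907397-40907426, minus strand: cctcgtttctccatAGCATTAAgccctact
Tspan14, miR-155, chr14:40906445-40906468, minus strand: tattaaaacaaaaaAGCATTAAgc
Wbp1l, miR-155, chr19:46654768-46654797, plus strand: acacccacgagagaAGCATTAAgtaacatg
Wbp1l, miR-128, chr19:46657330-46657359, plus strand: agagtggctccaacCACTGTGAgaaacccc
Sgcb, miR-128, chr5:73633027-73633056, minus strand: tggcaatcttcttgCACTGTGAcagaagca
Slc39a13, miR-128, chr2:91062732-91062761, minus strand: gggagagagaccgaCACTGTGAcccctggg
Gabra2, miR-128, chr5:70959728-70959757, minus strand: ttcaagtatgatttCACTGTGtgtttttgc

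The 5 genes behind these windows were called lower in clamped KI, and all but Sgcb were also called in Sham. Tspan14 differed by -0.68 in clamped and -0.62 in Sham cords (edgeR adjusted p = 0.00176 in Sham). Wbp1l stood at 55.6, 46.1, 46.6, 75.1 and 57.5 CPM in clamped KI and 96.0, 85.7 and 101 in clamped KO (-0.75, SE 0.136, adjusted p = 0.022) and differed by -0.67 in Sham (adjusted p = 0.0433). Slc39a13 stood at 25.7 to 30.5 against 34.8 to 38.9 CPM (-0.39, SE 0.0784, adjusted p = 0.0318) and differed by -0.43 in Sham (adjusted p = 0.0111). Sgcb stood at 64.3 to 68.7 against 78.8 to 83.8 CPM (-0.31, SE 0.0605, adjusted p = 0.028), with -0.27 in Sham (adjusted p = 0.0623). Clamped WT cords were at the KO level for Tspan14. They were nearer to KI for Slc39a13 (24.8, 27.3 and 28.5 CPM), Wbp1l (66.4, 56.7 and 70.5 CPM) and Sgcb (67.3, 66.0 and 76.0 CPM), and for Gabra2 as given above. A match is a description of the sequence, and whether either microRNA acts at these windows was not tested.

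The called genes were also placed on the chromosomes. Chromosome 19 held 3 calls among 581 tested genes, chromosome 16 held 3 among 594 and the mitochondrial genome 3 among 32. These are 0.516%, 0.505% and 9.38% of the genes tested there, where 0.194% of all genes tested were called. Within 10 Mb of R3hdm1, 0 of 168 tested genes were called, and within 10 Mb of Arpp21, 0 of 281. The window around Mir155hg held 1 call among 101 genes, Mir155hg itself, and that around Gt(ROSA)26Sor held 1 among 160, Setd5. Around Ide, 3 of 206 were called: Ide, which was higher, and Ppp1r3c and Wbp1l, which were lower. Nuclear copies of mitochondrial genes beside Gm28438 on chromosome 1 were not called, Gm10222 among them (-0.82, adjusted p = 0.102), which was called in Sham (-1.01, adjusted p = 0.0245).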

How the data were processed

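Gene counts of the 4 h spinal cord libraries were deposited by the authors as a table of whole numbers, with annotation columns (position, strand, length, biotype). Per the labels' protocols, mRNA was selected on poly-T beads and made into directional libraries. The submitters' processing notes name fastp, HISAT2 2.0.5, featureCounts 1.5.0-p3 and the GRCm38 (mm10) build. The annotation release and the strand setting of the counting are not given in the sources used here. Analysis used the 22 libraries of 4 h in 6 groups, 1 mouse each, with clamped KO library 1 left out as in the study. Counts were scaled by TMM, filtered with edgeR 4.0.16 (minimum count 10, 19581 of 54532 genes kept) in R 4.3.3, and tested by quasi-likelihood with 16 residual degrees of freedom. P-values were adjusted by Benjamini-Hochberg over all genes tested. The biological coefficient of variation was 0.141. All log2 differences are KI minus KO and fold changes are edgeR's fitted ones. CPM used TMM-scaled library sizes, and a floor of 3 counts was 0.107 to 0.154 CPM per clamped KI and KO library. Floors cover counting error only.

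The fitting code was tested on simulated counts. Alternatives were DESeq2 1.42.0, other scalings, no filter, only the libraries compared, KO library 1 included, a replicate block, a Y-linked covariate and each library left out. Leaving out Sham WT was added after seeing the data. Named genes were the largest called changes whose groups did not overlap and whose log2 CPM averaged 1 or more (20 genes) plus genes always named. The other 18 called genes were outside that first part of the rule, 16 of them outside every part, and were named after their values were seen. Members, lists and comparisons were chosen with earlier results of these data known, so none is independent evidence. Seed matches were read with Biopython 1.88. Results for some genes are not reported here.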

Additional observations from a re-analysis of the deposited data

Results flagged for a closer look

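In 10 of the 130 genes examined, 1 of the 5 clamped KI libraries stood far from the other 4 by Dixon's criterion, which chance alone meets in about 1 in 20 groups. Library 1 was apart at 4 genes besides Mir155hg. It held 347 CPM of the chaperone Hsp90b1 (others 261 to 284), 25.4 of Thumpd3 (others 21.6 to 22.7), 9.9 of Mylk (others 8 to 8.24) and 0 of Nnt (others 0.66 to 0.866). It was also the lowest for Mir155hg, at 0.688 CPM (others 1.32 to 1.57). Library 3 was the highest for the potassium channel subunit Kcnab2 at 615 CPM (others 494 to 527), for the vesicular GABA transporter Slc32a1 at 188 (others 158 to 165) and for Aim2 at 6.85 (others 5.07 to 5.31). Library 2 was the highest for Chat at 26.6 CPM (others 18.8 to 20.4), and library 5 the lowest for Hoxb5 at 27.4 (others 31.3 to 32.7).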

How the results depend on the processing

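The clamped comparison (10 higher, 28 lower) gave 45 and 96 calls with DESeq2, 54 lower without the count filter, 16 and 57 with KO library 1 included and 6 and 14 with a Y-linked covariate. Leaving out 1 clamped library gave 1 to 10 higher and 6 to 45 lower. The Sham comparison (11 and 18) gave 27 and 79 with DESeq2 and 28 lower without the filter, and 6 to 10 higher and 8 to 18 lower when 1 Sham library was left out. DESeq2 called 1 gene for the difference of the clamp effect and edgeR 0. With the replicate block, clamped calls were 3 and 8 and Sham calls 7 and 10, although the numbers were not found to pair the mice: clamped KI and KO libraries of the same number correlated in their deviations from the group means at 0.13, -0.0269 and 0.222 over 14072 genes. The cause of these shifts was not tested. Some uncalled genes changed sign. With KO library 1 included, the log2 differences became 0.105 (Hspa8), 0.075 (Hsp90aa1), 0.117 (Hspa5), 0.261 (Jun), 0.126 (Egr1), -0.525 (Hbb-bs), 0.026 (Hoxb9), 0.189 (Fos), -0.0 (Cxcl14), -0.741 (S100a9), -0.588 (Ngp) and -0.497 (Igkc). With the replicate block they became 0.012 (Srebf2), -0.124 (Hbb-bs), 0.003 (Hoxb9) and -0.183 (S100a9). With upper quartile scaling they became 0.01 (Hspa8), 0.007 (Hspa5), 0.016 (Srebf2) and 0.014 (Hoxb9), and with only the 8 libraries compared 0.003 (Srebf2) and 0.0 (Hoxb9). With the Y-linked covariate they became -0.086 (Ddx3x), -0.032 (Xist), 0.044 (Ddx3y), 0.069 (Chil3) and 0.246 (Uty). With 1 clamped library left out, values ran from -0.076 to 0.218 (Ackr1), -2.576 to 0.626 (Acta1), -0.232 to 0.006 (Arpp21), -0.125 to 0.021 (Bcas1), -0.223 to 0.811 (Ccl2), -0.067 to 0.764 (Ccl3), -0.185 to 0.761 (Ccl4), -0.362 to 0.545 (Chil3), -0.072 to 0.152 (Csf1) and -0.081 to 0.318 (Ddx3x). They ran from -0.177 to 0.314 (Hbb-bs), -0.085 to 0.017 (Hoxb8), -0.041 to 0.026 (Hoxb9), -0.126 to 0.02 (Hsp90aa1), -0.053 to 0.167 (Hspa1b), -0.079 to 0.047 (Hspa5), -0.09 to 0.085 (Hspa8), -0.184 to 0.103 (Jun) and -0.351 to 0.204 (Mnx1). They ran from -2.148 to 0.622 (Mylpf), -0.056 to 0.82 (Ngp), -0.145 to 0.34 (Nnt), -0.196 to 0.032 (Pdgfra), -0.004 to 0.149 (Ret), -0.273 to 0.323 (S100a9), -0.065 to 0.007 (Sqstm1), -0.024 to 0.032 (Srebf2), -0.079 to 0.006 (Tns1), -1.304 to 0.02 (Uty) and -0.272 to 0.024 (Vim). No gene called in the clamped comparison changed sign under these alternatives. Genes under 1 CPM on average, Mir155hg and mt-Tr among the calls, rest on few counts.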
